A study of Homo sapiens with 28 samples.

Results

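Cytosolic ribosomal protein genes encode the protein part of the small and the large subunit of the ribosome. They were taken from the deposited gene table by symbol, as RPL or RPS followed by a number with an optional A, L or X, together with RPLP0, RPLP1, RPLP2 and RPSA. This gave 81 of 25369 genes, 32 for the small subunit and 49 for the large subunit. The symbol rule itself uses no measured value, but it was chosen with earlier results of these data known. Of the 81, 78 had enough counts to be tested. Those not tested included RPL21, with 2 counts over all 28 libraries, and RPL3L, the muscle paralog of RPL3, with 0 to 4 counts per library. RPL21 shares exon bases with RPL21P28 on the same strand. How reads of such overlaps were counted is not given in the sources used here, so the low RPL21 count is uncertain.

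The RNA came from LNCaP cells, a widely used line derived from a metastatic prostate cancer, and all cells had been reverse transfected with siRNA. In 5 groups the cells received tunicamycin (TM, 2.5 µg/mL for 18 h) with a further agent. TM PERKi siCtrl had a non-targeting siRNA and the PERK inhibitor GSK2606414 at 100 nM, TM siPERK-1 and TM siPERK-3 each had 1 of 2 oligos against EIF2AK3 (the gene for PERK), and TM siATF4-2 and TM siATF4-3 each had 1 of 2 oligos against ATF4. TM siCtrl had the non-targeting siRNA and tunicamycin alone, and DMSO siCtrl had the non-targeting siRNA and the solvent alone. Each of the 7 groups had 4 libraries, which per the series' design text came from 4 separate experiments on this 1 cell line.

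A ribosome needs its proteins in near equal amounts, although their genes are scattered over the chromosomes, and their mRNAs are among the most abundant of a growing cell. Most of these mRNAs start with a 5′ terminal oligopyrimidine (TOP) tract, a run of cytosines and thymines (uracils in RNA) right at the cap, through which mTOR and LARP1 set how strongly they are translated. Tunicamycin stops N-glycosylation, so that unfolded proteins build up in the endoplasmic reticulum. PERK is a kinase that senses this stress, slows protein synthesis by phosphorylating eIF2α and thereby favours the making of ATF4, a transcription factor of amino acid and stress genes.

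The starts of several members described below, with and without a TOP-like run, show what these tracts look like. RefSeq promoter entries (GRCh38.p14) were found for 64 of the 81 genes. Each window below holds 10 bases before the annotated start and 20 from it on, written 5′ to 3′ on the gene's strand, and the capitals mark the longest C and T run that touches the start or lies within 5 bases of it. RPL10 has several annotated starts, of which the one with the longest run is shown.
RPL13A chr19:49487598-49487627 (plus strand): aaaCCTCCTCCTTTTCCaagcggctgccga
RPL10 chrX:154398367-154398396 (plus strand): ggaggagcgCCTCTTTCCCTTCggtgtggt
RPS9 chr19:54200848-54200877 (plus strand): gcttccgcgCCTCTTTCTCagtgaccgggt
RPL3 chr22:39319604-39319633 (minus strand): gccgaccggCCTCTaccggcgggatttgat
RPS27 chr1:153990752-153990781 (plus strand): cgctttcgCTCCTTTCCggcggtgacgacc
RPL35 chr9:124861938-124861967 (minus strand): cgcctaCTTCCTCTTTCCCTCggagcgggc
RPS29 chr14:49598691-49598720 (minus strand): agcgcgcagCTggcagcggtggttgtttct
RPS27L chr15:63157458-63157487 (minus strand): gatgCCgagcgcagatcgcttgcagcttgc
RPL10L chr14:46651762-46651791 (minus strand): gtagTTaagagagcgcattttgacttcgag

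A run of at least 5 pyrimidines was annotated at the start of 56 of the 64 members (87.5%), against 39.2% of 27305 genes in the same table. The median longest run was 11 bases for members and 4 bases for all genes. The letters CTTTC or CTTCC lay within the 30-base window of 70.3% of members and 13.3% of all genes. The letters CCGGAA, the core of an ETS-family binding motif, were found on either strand of the 300-base entry for 57.8% of members and 20.1% of all genes. The 8 members without a run of that length were RPL4, RPL9, RPL10L, RPL15, RPL27, RPS15, RPS27L and RPS29. A match or its absence describes these letters in these windows only.

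Library totals were 10794637 to 17253801 counts. The targeted genes followed the labels, in CPM, which are counts scaled to a common library size with TMM factors. EIF2AK3 had 23.0, 30.5, 21.4 and 23.6 CPM in TM siPERK-1 and 19.97, 21.9, 19.7 and 24.3 CPM in TM siPERK-3, against 79.9, 95.2, 90.7 and 91.0 CPM in TM siCtrl. ATF4 had 221, 194, 177 and 358 CPM in TM siATF4-2 and 115, 98.5, 102 and 140.4 CPM in TM siATF4-3, against 1479, 1487, 1562 and 1517 CPM in TM siCtrl. In DMSO siCtrl, EIF2AK3 averaged 30.2 ± 0.742 CPM and ATF4 605 ± 85.3 CPM (SD, n = 4), and in TM PERKi siCtrl, where PERK is blocked as an enzyme, EIF2AK3 averaged 125 ± 4.25 CPM and ATF4 1415 ± 61.2 CPM. The marker values of cell types that follow are CPM from library totals alone, without TMM factors. They are therefore not on the scale of the EIF2AK3 and ATF4 values above. All 9 prostate luminal markers were detected, and their summed level was 3268 to 3596 CPM in TM siCtrl and 6783 to 7791 CPM in DMSO siCtrl. Of other cell types, basal, leukocyte and endothelial markers summed to at most 1.73 CPM in any library, with TP63 at 0. The fibroblast list of 5 genes was almost COL1A1 alone, with COL1A2 at 0 and DCN at most at 0.0718 CPM. Its sum was 31.8 to 38.8 CPM in TM siCtrl and 18.2 to 23.3 CPM in DMSO siCtrl, and 14.8 to 23.6 CPM in TM siATF4-2 and 14.3 to 21.6 CPM in TM siATF4-3. The part of these marker shifts in the results below was not tested. In bulk RNA, fewer cells of a kind and less RNA per cell cannot be told apart.

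The members took 8.46% to 9.98% of each library. Their share of all counts was 8.62 ± 0.109% in TM PERKi siCtrl, 9.69 ± 0.159% in TM siPERK-1, 8.97 ± 0.217% in TM siPERK-3, 9.39 ± 0.173% in TM siATF4-2, 9.81 ± 0.226% in TM siATF4-3, 9.38 ± 0.138% in TM siCtrl and 9.54 ± 0.126% in DMSO siCtrl (SD, n = 4). All 4 inhibitor libraries (8.46% to 8.71%) lay below every TM siCtrl library (9.21% to 9.503%), while TM siCtrl overlapped DMSO siCtrl (9.42% to 9.72%). A share depends on what else is in the library: without the 13 other genes that were among the 10 most abundant of any library, it was 10.1% in TM siCtrl and 9.97% in DMSO siCtrl, so that the order of these groups turned. The ratio of small to large subunit counts was 0.586 ± 0.00419 in TM siATF4-2 and 0.584 ± 0.00270 in TM siATF4-3, against 0.568 ± 0.00192 in TM siCtrl.

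**Figure D1:**
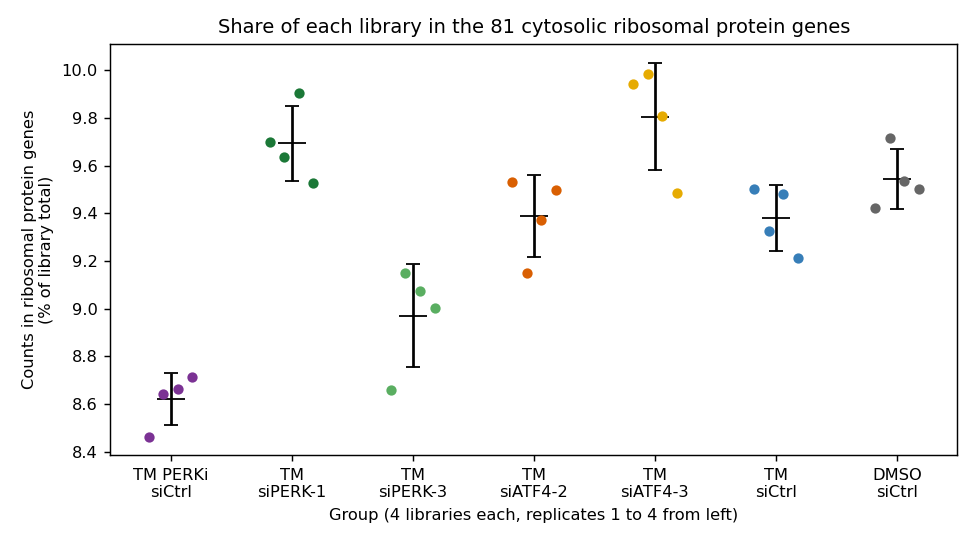
Percent of all counts that fell in the 81 ribosomal protein genes, for each of the 28 libraries (points) with the mean and SD of each group (lines, n = 4). All libraries lie between 8.46% and 9.98%, and the TM PERKi siCtrl libraries are below all TM siCtrl libraries.

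Levels between genes were compared per length, as CPM per kilobase of exon. RPL41 (5448 ± 317), RPS2 (5018 ± 425), RPL7A (3368 ± 286), RPS27 (3194 ± 293) and RPLP1 (3127 ± 253) were highest on this scale (SD over 28 libraries). RPL10L (6.10 ± 1.36), RPL36A (7.003 ± 0.638), RPL39L (7.75 ± 1.57), RPS10 (109.9 ± 9.31) and RPS27L (121 ± 11.2) were lowest of the 78 tested. The median member was at 1262. RPL36A and RPS10 share exons with the readthrough genes RPL36A-HNRNPH2 and RPS10-NUDT3, and how reads of such overlaps were counted is not given in the sources used here, so their levels are uncertain. By the deposited exon models, 15 members overlap another gene, RPL13A, RPL10, RPL17, RPL23A, RPL28 and RPL35 among them.

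Members varied less than genes in general, in a comparison not matched for count level. The low-count members RPL10L and RPL39L had SDs between replicates of 0.256 and 0.216 on the log2 scale. The part of count level in the values of all members below was not tested. The members' median SD between replicates was 0.0582 on the log2 scale, against 0.119 for all 14314 genes tested. Their median SD of the 7 group means was 0.0865, against 0.230 for all genes. The highest group mean of a member was 1.18 times its lowest in the median, with a range of 1.07 times (RPL18) to 1.93 times (RPL13A). RPL13A was the only member over 1.5 times. Next came RPL39L (1.49), RPL10L (1.45), RPL10 (1.44) and RPS9 (1.38). TM siPERK-1 held the highest group mean for 45 of the 78 members, and DMSO siCtrl the lowest for 36. These ranks are of TMM-scaled CPM and depend on the scaling. As a share of all counts, DMSO siCtrl (9.54%) was above TM PERKi siCtrl (8.62%), TM siPERK-3 (8.97%), TM siCtrl (9.38%) and TM siATF4-2 (9.39%). It was below TM siPERK-1 (9.69%) and TM siATF4-3 (9.81%).

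With tunicamycin alone, small rises outnumbered falls among the members. At an adjusted p under 0.05, 41 of 78 were higher in TM siCtrl than in DMSO siCtrl and 4 were lower, where 34.3% of all genes were called higher and 34.7% lower. This split depends on the scaling, since with library totals alone 7 members were higher and 23 lower. The median log2 change of the members was 0.12 against 0.01 for all genes; with library totals alone these medians were -0.02 and -0.13, so the distance between them was 0.11 in both. None of the called members changed by over 1.5-fold, whereas 4740 of the 14314 genes did. Of the small subunit, 20 of 31 members rose and 2 fell, and of the large subunit 21 of 47 rose and 2 fell (2 and 8, and 5 and 15, with library totals alone).

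RPL10, a late-joining protein of the large subunit needed before the subunits can pair (chromosome X, bases 153626571 to 153630680, plus strand, hg19), had 1282, 1251, 1301 and 1134 CPM in TM siCtrl, against 874, 938, 897 and 821 CPM in DMSO siCtrl. Every treated library was above every solvent library, with a log2 change of 0.49 ± 0.05 (SE; adjusted p = 3.27e-11). RPL10 shares exon bases with DNASE1L1 on the opposite strand, for which the log2 change was -0.18 and not called. RPS27, a zinc-finger protein of the small subunit, had 1260.0, 1259.9, 1238 and 1224 CPM in TM siCtrl, against 946, 964, 946 and 978 CPM in DMSO siCtrl. These groups did not overlap either (0.38 ± 0.04, adjusted p = 1.82e-11).

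The stalk proteins, which draw elongation factors to the ribosome, were all 3 called higher, RPLP2 with a change that turned its sign with library totals alone. RPLP0 had 4234, 4086, 4272 and 3943 CPM in TM siCtrl, against 3376, 3514, 3399 and 3161 CPM in DMSO siCtrl, with no overlap (0.30 ± 0.04, adjusted p = 1.22e-08). RPLP1 had 1746, 1578, 1682 and 1499 CPM in TM siCtrl, against 1309, 1451, 1366 and 1377 CPM in DMSO siCtrl, also without overlap (0.24 ± 0.05, adjusted p = 2.69e-05). RPLP2 had 780.2, 748, 812 and 772 CPM in TM siCtrl, against 701, 712, 664 and 754 CPM in DMSO siCtrl. For RPLP2 the groups overlapped and the change was 0.14 ± 0.05 (adjusted p = 0.0109); with library totals alone it was -0.0038.

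The 4 members that fell with tunicamycin had small changes. RPS26, of the mRNA exit side of the small subunit and a Diamond-Blackfan anaemia gene, had 262, 259, 256 and 224 CPM in TM siCtrl, against 272, 299.5, 308 and 247 CPM in DMSO siCtrl (-0.17 ± 0.06, adjusted p = 0.00973). RPL23A, at the rim of the exit tunnel, had 1326, 1298, 1293 and 1259 CPM in TM siCtrl, against 1337, 1538, 1502 and 1335 CPM in DMSO siCtrl (-0.14 ± 0.05, adjusted p = 0.00673). The RPS26 groups overlapped and the RPL23A groups lay just apart. RPS15, which reaches the decoding site, averaged 524 ± 35.3 CPM in TM siCtrl and 584 ± 50.7 CPM in DMSO siCtrl (-0.16 ± 0.06, adjusted p = 0.0261), and RPL29 changed by -0.13 ± 0.05 (adjusted p = 0.0110), both with overlapping groups. These calls rest on few libraries: with DMSO siCtrl replicate 2 or TM siCtrl replicate 4 left out 1 member was called lower, and with DMSO siCtrl replicate 3 left out 2 were.

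**Figure D2:**
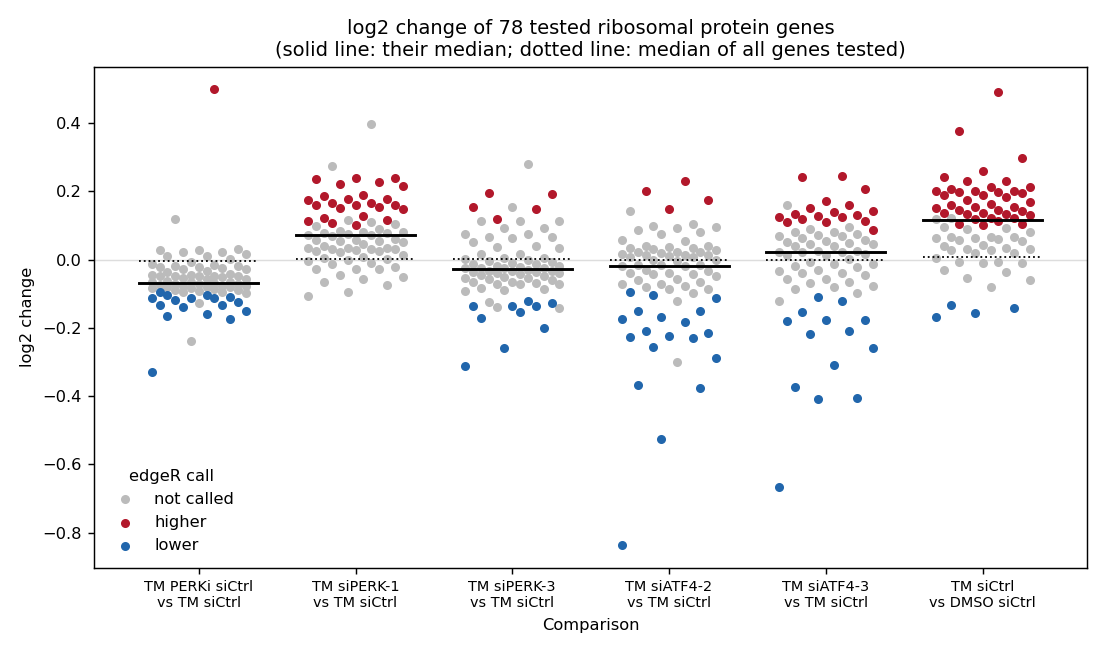
Log2 change of each of the 78 tested ribosomal protein genes (points) in the 6 comparisons with a control group, coloured by call (adjusted p below 0.05). Solid lines give the median of the members and dotted lines the median of all 14314 genes; in TM siCtrl against DMSO siCtrl these are 0.12 and 0.01, and with library totals alone they are -0.02 and -0.13.

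Knockdown of ATF4 under tunicamycin split the members, with a handful well below the rest. With TM siATF4-2, 4 of 78 members were higher than in TM siCtrl and 19 were lower, where 28.4% of all genes were higher and 27.2% lower. With TM siATF4-3, 18 were higher and 14 lower, where 31.2% and 30.7% of all genes were. With library totals alone the counts were 18 and 16 for TM siATF4-2 and 36 and 12 for TM siATF4-3, and with upper-quartile factors they were 10 and 18 for TM siATF4-3, so the balance between rises and falls turned with the scaling. The median log2 change of the members was -0.02 with TM siATF4-2 and 0.02 with TM siATF4-3, against -0.00 for all genes with both. Both comparisons use the same TM siCtrl libraries. The number of higher members fell to 2 with TM siATF4-2 and to 11 with TM siATF4-3 when TM siCtrl replicate 4 was left out.

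RPL13A moved most. It encodes a large subunit protein that, in myeloid cells, also leaves the ribosome to silence inflammatory mRNAs (chromosome 19, bases 49990811 to 49995564, plus strand, hg19). It had 268, 273, 271 and 397 CPM in TM siATF4-2 and 314, 326, 322 and 397 CPM in TM siATF4-3, against 516, 534, 552 and 555 CPM in TM siCtrl. All 8 knockdown libraries were below all 4 control libraries, a log2 change of -0.84 ± 0.09 for TM siATF4-2 (adjusted p = 2.79e-08) and of -0.67 ± 0.09 for TM siATF4-3 (adjusted p = 7.23e-07). Replicate 4 was the highest library of both knockdown groups, and without it the changes were -0.99 with TM siATF4-2 and -0.75 with TM siATF4-3. ATF4 itself was also highest in those libraries, at 358 CPM in TM siATF4-2 and 140.4 CPM in TM siATF4-3, and its part in the RPL13A values was not tested. RPL13A was the only member called at over 1.5-fold with either oligo, and its groups without ATF4 knockdown lay at 463 to 612 CPM. RPL13A shares exon bases on the same strand with RPL13AP5, whose values are not given here. The transcript RPL13AP20, a processed copy outside the symbol rule, changed by -0.33 with TM siATF4-2 and -0.17 with TM siATF4-3, both called. How reads that match several places or overlapping genes were counted is not given in the sources used here. The values of RPL13A and RPL13AP20 are therefore uncertain.

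Several abundant members fell with each oligo. RPL10 had 907, 799, 819.5 and 928 CPM in TM siATF4-2 and 969, 956, 917 and 911 CPM in TM siATF4-3, against the TM siCtrl values of 1134 to 1301 CPM given above. The groups did not overlap (-0.52 ± 0.05, adjusted p = 2.14e-11, and -0.40 ± 0.05, adjusted p = 6.91e-09). The RPL10 means were 863 ± 63.8 CPM in TM siATF4-2 and 938 ± 28.6 CPM in TM siATF4-3, with 883 ± 49.0 CPM in DMSO siCtrl. DNASE1L1, on the opposite strand of RPL10, changed by -0.24 and -0.30, both called, and the part of shared reads was not tested.

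RPS9, which binds early in the assembly of the small subunit, had 456, 397, 457 and 489 CPM in TM siATF4-2 and 438, 474, 414 and 474 CPM in TM siATF4-3, against 607, 539.6, 615 and 573 CPM in TM siCtrl. All knockdown libraries were lower (-0.38 ± 0.06, adjusted p = 6.6e-07, and -0.37 ± 0.06, adjusted p = 5.18e-07). RPL3, next to the peptidyl transferase centre, had 2937, 2768, 2929 and 3072 CPM in TM siATF4-2 and 3049, 3114, 2993 and 3042 CPM in TM siATF4-3, against 3883, 3726, 3924 and 3577 CPM in TM siCtrl. It too fell without overlap (-0.37 ± 0.04, adjusted p = 1.8e-09, and -0.31 ± 0.04, adjusted p = 5.96e-08).

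RPS29, a small zinc-binding protein of the head of the small subunit, had 289, 274, 271 and 341 CPM in TM siATF4-2 and 278, 262, 247 and 250.4 CPM in TM siATF4-3, against 342, 347, 345 and 342 CPM in TM siCtrl. It fell with both (-0.23 ± 0.06, adjusted p = 0.00162, and -0.41 ± 0.06, adjusted p = 3.92e-07), although replicate 4 of TM siATF4-2 came close to the control libraries. RPS27 had 1091, 1046, 1020.4 and 1101 CPM in TM siATF4-2 and 1077, 1078, 1029 and 983 CPM in TM siATF4-3, between the TM siCtrl and the DMSO siCtrl values above (-0.23 ± 0.04, adjusted p = 3.37e-06, and -0.26 ± 0.04, adjusted p = 2.14e-07). Also lower with both oligos were RPS25 (-0.29 and -0.22), RPS20 (-0.25 and -0.21), RPL7A (-0.22 and -0.18), RPLP0 (-0.21 and -0.15), RPS16 (-0.21 and -0.11), RPL10A (-0.18 with both) and RPL15 (-0.11 and -0.12).

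Some members moved the other way. RPS2, a core protein near the mRNA entry of the small subunit, had 5438, 5048, 5482 and 4523 CPM in TM siATF4-2 and 5038, 5313, 5405 and 4899 CPM in TM siATF4-3, against 4713, 4304, 4495 and 3963 CPM in TM siCtrl. It rose by 0.23 ± 0.06 (adjusted p = 0.000631) and 0.24 ± 0.06 (adjusted p = 0.000299), with overlap for TM siATF4-2 only. RPL35, near the exit of the nascent chain, had 992, 952, 954 and 924 CPM in TM siATF4-2 and 986, 994, 944 and 912 CPM in TM siATF4-3, against 829.7, 819, 847 and 829 CPM in TM siCtrl. All its knockdown libraries were higher (0.20 ± 0.04, adjusted p = 1.63e-05, and 0.21 ± 0.04, adjusted p = 8.79e-06).

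RPL36, a large subunit protein, rose with overlapping groups with TM siATF4-2 (0.18 ± 0.06, adjusted p = 0.00875; mean 996 ± 54.7 CPM against 881 ± 48.2 CPM in TM siCtrl), and its change of 0.05 ± 0.06 with TM siATF4-3 was not called. RPL28, also of the large subunit, rose with TM siATF4-3 (0.24 ± 0.06, adjusted p = 0.000919), with 844, 889.5, 937 and 826 CPM against 798, 685, 752 and 716 CPM in TM siCtrl. It changed by 0.01 ± 0.06 with TM siATF4-2.

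**Figure D3:**
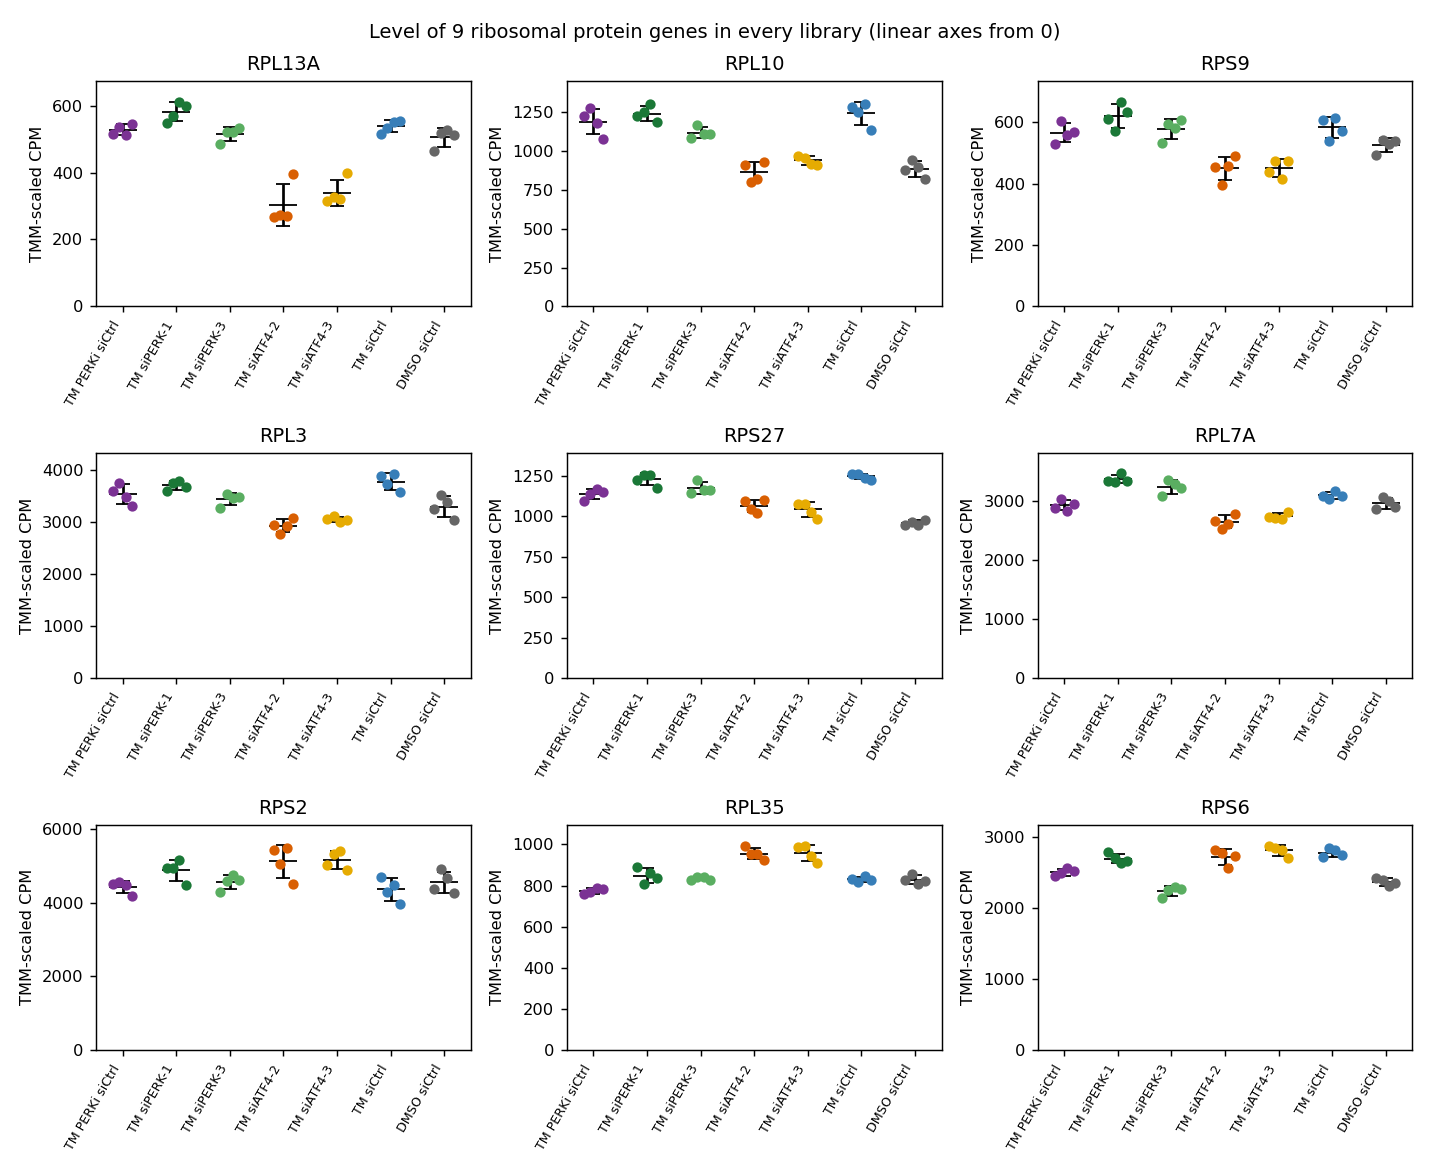
TMM-scaled CPM of 9 ribosomal protein genes in each of the 28 libraries (points), with mean and SD per group (lines, n = 4) and linear axes from 0. RPL13A lies at 268 to 397 CPM in the siATF4 groups and at 463 to 612 CPM in all others; RPL35 and RPS2 have their highest group means with siATF4, and RPS6 its lowest with siPERK-3.

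A direct comparison of the oligos showed where they differ. Of 78 members, 1 was higher and 14 lower in TM siATF4-2 than in TM siATF4-3, where 8.53% of all genes were higher and 6.2% lower. RPL13A (-0.17 ± 0.09), RPL10 (-0.12 ± 0.05), RPS9 (-0.00 ± 0.06) and RPL3 (-0.06 ± 0.04) were not called. RPL23A had 1152, 1083, 1109.6 and 1259.9 CPM in TM siATF4-2, against 1347, 1361, 1417 and 1306 CPM in TM siATF4-3, with no overlap (-0.24 ± 0.05, adjusted p = 0.000330). RPL28 differed by -0.23 ± 0.06 (adjusted p = 0.00948), RPL39L, a testis paralog near the detection limit, by -0.46 ± 0.16 (adjusted p = 0.0499) and RPS29, the higher one, by 0.18 ± 0.06 (adjusted p = 0.0431). ATF4 itself was higher by 1.06 in TM siATF4-2. The count of lower members was 9 without TM siATF4-2 replicate 2, TM siATF4-3 replicate 1 or TM siATF4-3 replicate 2 and 7 without TM siATF4-3 replicate 3, and RPS29 lost its call without TM siATF4-2 replicate 1 or 4 or TM siATF4-3 replicate 2, 3 or 4.

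The 2 oligos against PERK gave different pictures. With TM siPERK-1, 25 of 78 members were higher than in TM siCtrl and 0 were lower, where 13.1% of all genes were higher and 13.3% lower. By edgeR 1 member was lower at an unadjusted p under 0.05, limma-voom and DESeq2 also called 0 lower, and 21 members were higher and 1 lower with library totals alone. With TM siPERK-3, 5 were higher and 10 lower, where 13.1% and 13.7% of all genes were (2 and 20 with library totals alone). The median log2 changes were 0.07 and -0.03, against 0.00 for all genes in both, and both comparisons share the TM siCtrl libraries. The count of 25 fell to 13 without TM siPERK-1 replicate 3. For TM siPERK-3 the higher count fell to 3 without TM siCtrl replicate 2 or 4 or TM siPERK-3 replicate 2 or 3, and the lower count to 5 without TM siCtrl replicate 3 or TM siPERK-3 replicate 1.

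With TM siPERK-1 the largest rises were in RPL23A, RPL29, a basic large subunit protein also known as a heparin-binding protein, and RPS26. RPL23A had 1446, 1554, 1622 and 1491 CPM in TM siPERK-1, above all TM siCtrl libraries (1259 to 1326 CPM; 0.24 ± 0.05, adjusted p = 0.000125). RPL29 had 1247, 1311, 1362 and 1278 CPM in TM siPERK-1 and 1201, 1321, 1273 and 1251 CPM in TM siPERK-3, against 1150.1, 1073, 1111 and 1069 CPM in TM siCtrl. It rose without overlap with both oligos (0.24 ± 0.05, adjusted p = 0.000120, and 0.20 ± 0.05, adjusted p = 0.00119). RPS26 had 283, 304, 314 and 279 CPM in TM siPERK-1, all above TM siCtrl (0.24 ± 0.06, adjusted p = 0.00196), and RPS15 rose with both oligos (0.22 ± 0.06, adjusted p = 0.00980, and 0.19 ± 0.06, adjusted p = 0.0209). The RPS15 call was lost in 2 of 15 alternatives for TM siPERK-1 (adjusted p up to 0.0531) and in 5 of 15 for TM siPERK-3 (up to 0.103). The changes of these genes with tunicamycin, given above, rest on the same TM siCtrl libraries.

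With TM siPERK-3 the largest falls were in the small subunit. RPS6, whose protein is the substrate by which S6 kinase activity is commonly read, had 2139, 2258, 2291 and 2275 CPM in TM siPERK-3, against 2717, 2840.1, 2821 and 2751 CPM in TM siCtrl. All its libraries were lower (-0.31 ± 0.04, adjusted p = 1.41e-08), whereas with TM siPERK-1 RPS6 changed by -0.04 ± 0.04 and was not called. RPS20, a protein of the small subunit head, had 677, 733, 737 and 696 CPM in TM siPERK-3, against 854, 848, 871 and 827 CPM in TM siCtrl, again apart (-0.26 ± 0.04, adjusted p = 1.37e-05).

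RPS21, a short small subunit protein, rose with TM siPERK-3 (323 ± 15.6 CPM against 290.4 ± 8.41 CPM in TM siCtrl; 0.15 ± 0.05, adjusted p = 0.0209). RPL36A had 19.4, 19.5, 17.9 and 19.5 CPM in TM siPERK-3, against 21.8, 22.2, 21.8 and 21.8 CPM in TM siCtrl (-0.20 ± 0.07, adjusted p = 0.0362). The groups of both genes lay apart, but the RPS21 call was lost in 5 of 15 alternatives, with an adjusted p of up to 0.0845, and the RPL36A call in 10 of 15, with one of up to 0.115.

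Set against each other, TM siPERK-1 had 16 of 78 members higher than TM siPERK-3 and 0 lower, where 2.24% of all genes were higher and 2.49% lower. With the experiment number as a block, which pairs these groups, 30 members were higher. By edgeR 0 were lower at an unadjusted p under 0.05 too, and limma-voom and DESeq2 also called 0 lower. Of the 78, 76 had a log2 change above 0, with a median of 0.10 against 0.00 for all genes. RPL28 had 802, 864, 923 and 867 CPM in TM siPERK-1, against 593, 678, 670.4 and 734 CPM in TM siPERK-3 (0.37 ± 0.06, adjusted p = 0.000174). RPS20 differed by 0.33 ± 0.04 (adjusted p = 9.13e-07) and RPS6 by 0.27 ± 0.04 (adjusted p = 2.07e-06), all 3 without overlap. EIF2AK3 was higher by 0.20 on the log2 scale in TM siPERK-1, which was not called. The count of 16 fell to 7 without TM siPERK-1 replicate 3 and to 6 without TM siPERK-3 replicate 1.

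With the PERK inhibitor, small falls outnumbered rises. In TM PERKi siCtrl, 1 of 78 members was higher and 17 were lower than in TM siCtrl, where 18.2% of all genes were higher and 17.5% lower (1 and 46 with library totals alone, 2 and 25 with the experiment number as a block). With TMM factors the 17 lower were 21.8% of the members, near the 17.5% of all genes. The 1 higher was 1.28% of the members, against 18.2% of all genes. The median log2 change was -0.07, against -0.005 for all genes. RPL36A had 18.1, 17.5, 17.8 and 16.4 CPM in TM PERKi siCtrl, below all TM siCtrl libraries (21.8 to 22.2 CPM; -0.33 ± 0.07, adjusted p = 0.000355). RPS10, another Diamond-Blackfan anaemia gene, had 84.2, 84.2, 89.2 and 87.3 CPM in TM PERKi siCtrl, against 90.6, 96.9, 98.7 and 103 CPM in TM siCtrl (-0.17 ± 0.05, adjusted p = 0.0109). RPL17, at the exit tunnel, had 265, 268, 294 and 279.8 CPM in TM PERKi siCtrl, against 299, 313, 309 and 321 CPM in TM siCtrl (-0.17 ± 0.05, adjusted p = 0.00853). In all 3 the groups lay apart.

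Among the abundant members, RPS6 fell by 0.15 ± 0.04 on the log2 scale (adjusted p = 0.00110) and RPS27 by 0.13 ± 0.04 (adjusted p = 0.00591). The single rise was in RPL10L, the testis paralog of RPL10, with 5.94, 5.27, 7.35 and 5.75 CPM in TM PERKi siCtrl, against 3.75, 3.09, 4.43 and 6.18 CPM in TM siCtrl. The groups overlapped (0.50 ± 0.17, adjusted p = 0.0229), and the call was lost without TM siCtrl replicate 1 or 2 or without TM PERKi siCtrl replicate 3 (adjusted p of up to 0.127). The count of 17 lower members was 10 without TM siCtrl replicate 3 and 9 without TM PERKi siCtrl replicate 1, and the higher count was 0 without TM siCtrl replicate 1 or TM PERKi siCtrl replicate 3 and 2 without TM PERKi siCtrl replicate 4.

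Against the mean of both siPERK groups, the inhibitor had 1 member higher and 40 lower, where 25.8% of all genes were higher and 26.1% lower, with a median log2 difference of -0.09 (57 lower with library totals alone). RPS15 had 492, 501, 501 and 530.2 CPM in TM PERKi siCtrl, against 537 to 659.9 CPM in the 8 siPERK libraries (-0.25 ± 0.05, adjusted p = 0.000218). RPL23A, RPL29 and RPS26 each differed by -0.20 with no overlap, and RPL7A by -0.17 ± 0.03 (adjusted p = 1.89e-05). RPL39L differed by -0.45 ± 0.14 (adjusted p = 0.00650), with overlapping groups. The single higher member was RPS27L, at 148 ± 9.72 CPM against 129.7 ± 9.83 CPM in TM siPERK-1 and 123 ± 6.95 CPM in TM siPERK-3 (0.22 ± 0.05, adjusted p = 0.000514), with overlapping groups.

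The mean of the siATF4 groups against the mean of the siPERK groups tests the difference between the knockdowns without the shared control. Here 12 of 78 members were higher with siATF4 and 35 lower, where 31.6% of all genes were higher and 32.3% lower; with library totals alone 32 were higher and 11 lower, so the balance turned with the scaling. The falls were led by RPL13A (-0.77 ± 0.06, adjusted p = 1.43e-10), RPS9 (-0.42 ± 0.04, adjusted p = 2.26e-11), RPL10 (-0.39 ± 0.04, adjusted p = 3.37e-12), RPS29 (-0.30 ± 0.04, adjusted p = 1.75e-07), RPL7A (-0.29 ± 0.03, adjusted p = 9.1e-13), RPL39L (-0.28 ± 0.11, adjusted p = 0.0247), RPS25 (-0.27 ± 0.04, adjusted p = 2.15e-07) and RPL3 (-0.26 ± 0.03, adjusted p = 1.44e-09). The fall of RPL39L, near the detection limit, was not shared by both oligos. Against TM siCtrl it changed by -0.30 with TM siATF4-2 and 0.16 with TM siATF4-3, neither called. RPL7A, a large subunit protein whose mRNA hosts snoRNAs, had 2529 to 2784 CPM in TM siATF4-2 and 2699 to 2821 CPM in TM siATF4-3, against 3331 to 3471 CPM in TM siPERK-1 and 3082 to 3351 CPM in TM siPERK-3. Rises were in RPL35 (0.19 ± 0.03, adjusted p = 8.66e-08), RPS10 (0.19 ± 0.04, adjusted p = 3.82e-05), RPS6 (0.17 ± 0.03, adjusted p = 2.6e-07) and RPL36 (0.16 ± 0.04, adjusted p = 0.000563). RPS6 did not rise against TM siCtrl, where its changes with the siATF4 oligos were -0.03 and 0.02, neither called. Against the same control it changed by -0.04 with TM siPERK-1, not called, and by -0.31 with TM siPERK-3, called. RPL13A was again the only member over 1.5-fold.

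**Figure D4:**
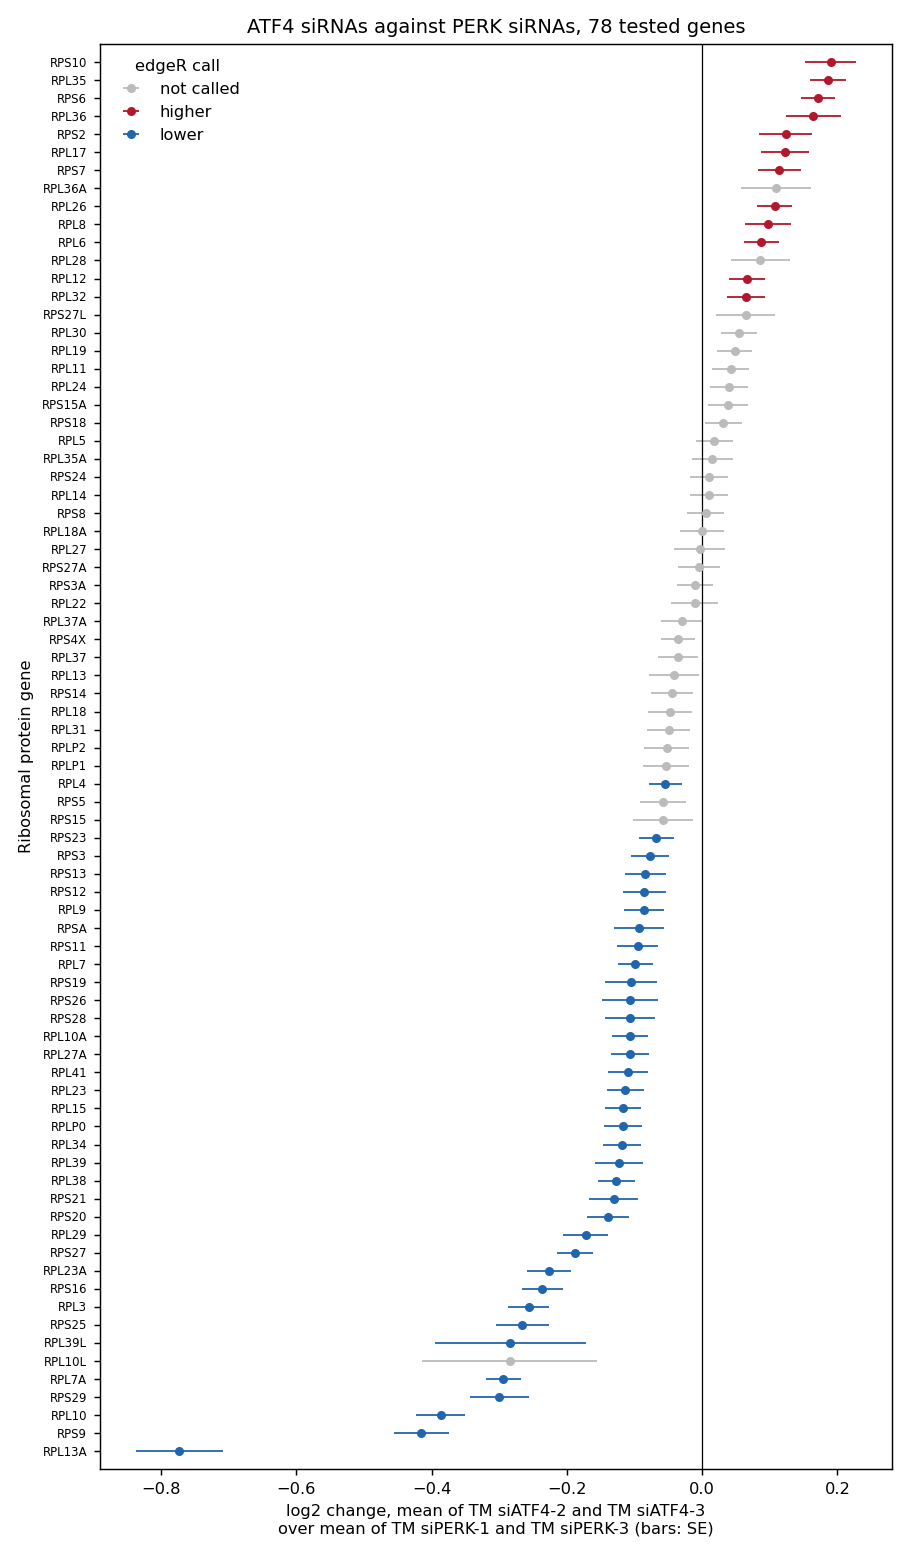
Log2 difference between the mean of the siATF4 groups and the mean of the siPERK groups for the 78 tested ribosomal protein genes, with SE bars and colour by call. RPL13A lies apart at -0.77; 35 members are called lower and 12 higher, and with library totals alone 11 are called lower and 32 higher.

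Paralogs that other tissues or stress conditions favour stayed below their partners. RPL39L, a testis paralog, had 5.03, 4.59, 4.01 and 4.86 CPM in TM PERKi siCtrl, 5.35 to 7.29 CPM in TM siPERK-1, 4.57 to 6.88 CPM in TM siPERK-3, 3.98 to 4.99 CPM in TM siATF4-2 and 4.68 to 7.71 CPM in TM siATF4-3, against 6.13, 5.76, 4.28 and 5.38 CPM in TM siCtrl. DMSO siCtrl had 3.73, 4.77, 6.49 and 5.02 CPM of it, and it was not called against either control. Its partner RPL39 had 479, 527, 484 and 454 CPM in TM siCtrl, against 463, 477, 489.7 and 469 CPM in DMSO siCtrl, with overlap (0.03 ± 0.05, not called; -0.1061 with library totals alone). Against TM siCtrl it was called with TM siPERK-1 (0.18 ± 0.05, adjusted p = 0.00602; 496 to 586 CPM), and the difference between the siPERK oligos was not called (0.13 ± 0.05). RPL10L, whose TM siCtrl values are given above, had 3.79, 3.70, 3.98 and 5.28 CPM in DMSO siCtrl, and its changes with the siPERK oligos were 0.40 ± 0.17 and 0.28 ± 0.18 and not called (0.40, adjusted p = 0.0343 for TM siPERK-1 with the experiment number as a block, in a range of 0.00893 to 0.326 over the alternatives). RPS27L, a p53 target in other human cells, had 137, 149, 132 and 126 CPM in TM siCtrl, against 121, 121, 123 and 107 CPM in DMSO siCtrl, and rose with no overlap (0.20 ± 0.06, adjusted p = 0.00360). Its changes against TM siCtrl were not called in any of the 5 comparisons, at 0.12 for the inhibitor, -0.07 and -0.14 for the siPERK oligos, and 0.02 and -0.10 for the siATF4 oligos.

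RPL5, RPL11 and RPL23 bind MDM2 when ribosome assembly fails and so stabilise p53. RPL5 had 1037, 1112, 1044 and 1062 CPM in TM siCtrl, against 960.0, 1005, 994 and 960.0 CPM in DMSO siCtrl (0.12 ± 0.04, adjusted p = 0.00606). RPL11 had 852, 881, 846 and 871 CPM in TM siCtrl, against 809.6, 795, 779.6 and 804 CPM in DMSO siCtrl (0.11 ± 0.04, adjusted p = 0.00942). Neither gene's groups overlapped, but with library totals alone the changes were -0.0206 and -0.0256. RPL23 had 942, 991, 911 and 898 CPM in TM siCtrl, against 971, 1017, 1005 and 960.1 CPM in DMSO siCtrl, and was not called (-0.08 ± 0.04). All 3 rose by 0.13 ± 0.04 with TM siATF4-3 and were lower in TM siATF4-2 than in TM siATF4-3, by 0.15, 0.17 and 0.15 on the log2 scale. RPL23 also rose with TM siPERK-1 (0.22 ± 0.04, adjusted p = 2.85e-05) and TM siPERK-3 (0.12 ± 0.04, adjusted p = 0.0199), where the call was lost in 5 of 15 alternatives (adjusted p up to 0.0887). RPL5 was higher with TM siPERK-1 by 0.10 ± 0.04 (adjusted p = 0.0451), a call lost in 8 of 15 alternatives (adjusted p up to 0.147).

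The medians of members with and without a pyrimidine run at the start lay close together with tunicamycin and with TM siATF4-2. Among tested members with a promoter entry, 55 with a run of at least 5 bases had a median log2 change of 0.11 with tunicamycin and 8 without one had 0.11. With TM siATF4-2 the medians were -0.02 and -0.02, and with TM siATF4-3 0.02 and -0.05. RPL13A, RPL10, RPS9 and RPL35, whose changes with siATF4 ran in different directions, all carry runs of 10 bases or more. RPL3, RPS27 and RPS29, which fell with both siATF4 oligos, carry longest runs of 5, 9 and 2 bases. The part of the run in these changes was not tested.

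Other gene sets give the surroundings of these values. Their counts stand against the shares of all genes called higher and lower. These were 34.3% and 34.7% with tunicamycin and 18.2% and 17.5% with the inhibitor. With TM siPERK-1 they were 13.1% and 13.3%, and with TM siPERK-3 13.1% and 13.7%. With TM siATF4-2 they were 28.4% and 27.2%, and with TM siATF4-3 31.2% and 30.7%. For the siATF4 against the siPERK groups they were 31.6% and 32.3%. The mitochondrial ribosomal proteins, which build the separate ribosome of mitochondria, had 8 of 77 members higher and 59 lower in TM siCtrl than in DMSO siCtrl (median log2 change -0.33), and 55 higher and 3 lower with TM siATF4-2 (0.31) and 58 higher and 6 lower with TM siATF4-3 (0.33). With library totals alone these counts were 5 and 67, 60 and 3, and 59 and 5. The inhibitor gave 17 and 5 (8 and 12 with library totals alone), TM siPERK-1 15 and 3 and TM siPERK-3 18 and 3. The siATF4 groups against the siPERK groups gave 55 and 6. The 17 higher with the inhibitor were 22.1% of this list, where 18.2% of all genes were higher. A list of chaperones and importers of ribosomal proteins also holds other ribosome factors such as ABCE1. It had 3 of 15 higher and 11 lower with tunicamycin (-0.37), or 1 and 12 with library totals alone. With TMM factors the importer IPO9 was at -1.07, the RPS26 chaperone TSR2 at -0.70, PDCD2L at -0.68 and the RPL3 chaperone GRWD1 at -0.63. With TM siATF4-2 11 were higher and 0 lower (0.38), and with TM siATF4-3 12 and 1 (0.51), led by PDCD2L (0.94 and 1.07), GRWD1 (0.76 and 0.86), the ribosome recycling factor ABCE1 (0.70 and 0.86) and LTV1 (0.60 and 0.75). For the count of 0, edgeR also gave 0 lower at an unadjusted p under 0.05, and with upper-quartile factors 2 were lower. The inhibitor gave 1 and 3, TM siPERK-1 5 and 2, and TM siPERK-3 3 and 1.

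Other TOP mRNAs and elongation factors had 15 of 23 members higher and 4 lower with tunicamycin (0.18), or 10 and 8 with library totals alone. EEF2 rose by 0.63, TPT1 by 0.55, EEF1A1 by 0.44 and FAU, which encodes the small subunit protein eS30 fused to a ubiquitin-like protein, by 0.42. With TM siATF4-2 3 were higher and 13 lower (-0.15), and with TM siATF4-3 5 and 10 (-0.06; 9 and 9 with library totals alone). The falls were led by GLTSCR2, a ribosome assembly factor (-0.65 and -0.56), EIF4B (-0.64 and -0.51), EEF1A1 (-0.51 and -0.44) and EIF3F (-0.47 and -0.43). EEF1A1 averaged 13564 ± 1442 CPM in TM siATF4-2 and 14251 ± 761 CPM in TM siATF4-3, against 19283 ± 278 CPM in TM siCtrl. The inhibitor gave 0 higher and 5 lower, TM siPERK-1 6 and 1, and TM siPERK-3 0 and 7. Both counts of 0 were also 0 by edgeR at an unadjusted p under 0.05. The 5 lower with the inhibitor were 21.7% of this list, where 17.5% of all genes were lower. With library totals alone the inhibitor gave 0 and 13, TM siPERK-1 4 and 1 and TM siPERK-3 0 and 11.

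**Figure D5:**
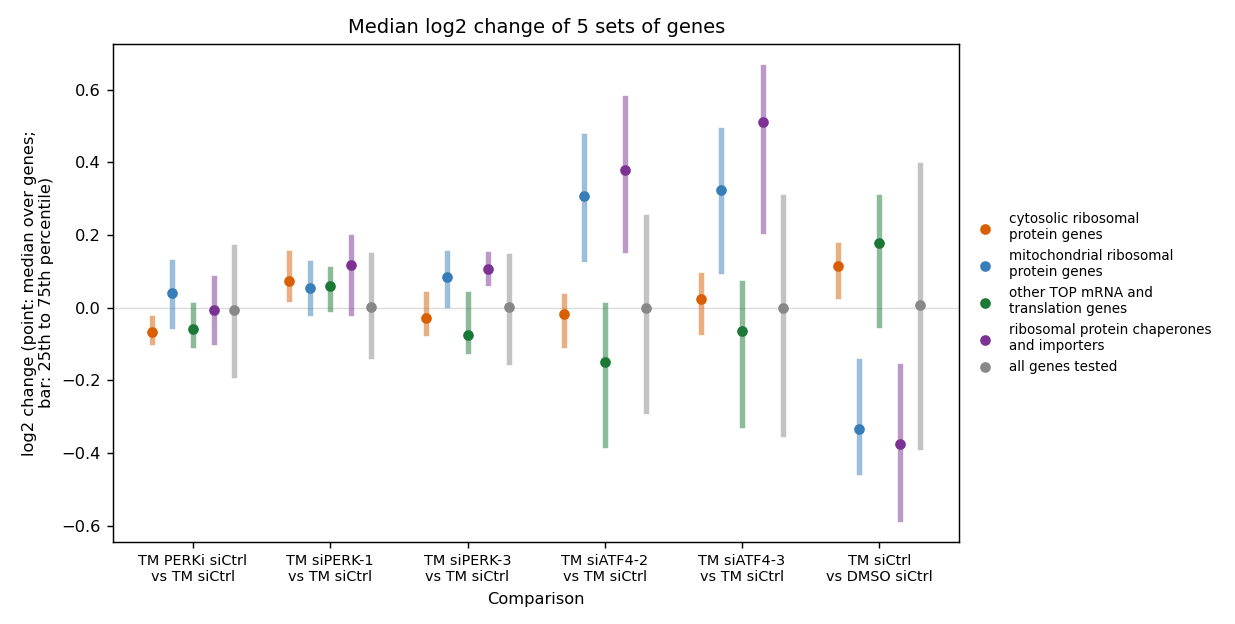
Median (points) and interquartile range (bars) of the log2 change of the ribosomal protein genes and of related gene sets in the 6 comparisons with a control group. Ribosomal protein genes stay near 0 (medians -0.07 to 0.12), while the mitochondrial ribosomal proteins are at -0.33 with tunicamycin and at 0.31 and 0.33 with the siATF4 oligos; with library totals alone the member median with tunicamycin is -0.02.

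Regulators of these genes and of TOP translation gave 6 of 21 higher and 8 lower with tunicamycin (3 and 13 with library totals alone). Of all genes, 34.3% were higher and 34.7% lower. The regulators' log2 changes with tunicamycin ran from -2.77 to 0.78, and 2 called genes changed by over 2-fold. The counts were 9 and 5 with the inhibitor, 3 and 3 with TM siPERK-1, 4 and 2 with TM siPERK-3, 10 and 4 with TM siATF4-2 and 13 and 4 with TM siATF4-3. MYC, a transcription factor of ribosome genes, had 73.5 ± 15.2 CPM in TM PERKi siCtrl, 208 ± 19.0 CPM in TM siPERK-1, 192 ± 28.3 CPM in TM siPERK-3, 221 ± 11.03 CPM in TM siATF4-2, 281 ± 15.3 CPM in TM siATF4-3, 142 ± 16.1 CPM in TM siCtrl and 319 ± 15.3 CPM in DMSO siCtrl. All its changes against TM siCtrl were called, at -0.95 for the inhibitor, 0.55 and 0.43 for the siPERK oligos and 0.64 and 0.98 for the siATF4 oligos. DDIT4, an inhibitor of mTOR complex 1, changed by -2.25 and -2.62 with the siATF4 oligos, and EIF4EBP1, a repressor of cap-dependent translation, by -1.12 and -1.38. With library totals alone the inhibitor gave 2 higher and 7 lower, and upper-quartile factors gave 6 and 6 for TM siATF4-2.

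The MDM2 and p53 list, which includes RPL5, RPL11 and RPL23, had 9 of 13 higher and 3 lower with tunicamycin (3 and 4 with library totals alone), with CDKN1A at 0.91. It had 4 and 1 with the inhibitor (3 and 4 with library totals alone), 2 and 1 with each siPERK oligo (1 and 5 for TM siPERK-3 with library totals alone), 3 and 3 with TM siATF4-2 and 8 and 3 with TM siATF4-3, where SURF2, a partner of the free RPL5 and RPL11 particle, rose by 1.02 and 1.27. The 2 higher with each siPERK oligo were 15.4% of the 13 genes, where 13.1% of all genes were higher. Of 9 ribosomal protein-like or fusion genes outside the symbol rule, 3 were higher and 1 lower with tunicamycin (2 and 3 with library totals alone). The inhibitor gave 0 and 2 (0 higher also at an unadjusted p under 0.05 by edgeR), TM siPERK-1 5 and 0 (0 lower likewise), and TM siPERK-3 and each siATF4 oligo 2 and 2. With library totals alone TM siPERK-1 gave 3 and 0 and TM siATF4-3 5 and 1, and upper-quartile factors gave 2 and 4 for TM siATF4-2. RPL36AL rose by 0.57 with tunicamycin and changed by -0.30 and -0.35 with the siATF4 oligos. RPL7L1 fell by 0.62 with tunicamycin and rose by 0.44 and 0.52 with the siATF4 oligos.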

How the data were processed

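Total RNA of 28 LNCaP libraries in 7 groups of 4 was sequenced with a strand-specific kit, per the labels' protocols. The deposited values are whole-number read counts per gene, in 6 tables, where 20 recurring columns had 0 differing values and were used once. Per the submitters' processing notes, TopHat2 2.1.0, featureCounts 1.5.0-p1, DESeq2 1.10.1 and hg19 were named; their settings, the annotation, the strand setting and the treatment of reads with several matches are not given in the sources at hand. The 1 unnamed line, with 0 counts, was dropped.

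Counts of all libraries were fitted together in R 4.3.3 with edgeR 4.0.16 (TMM scaling, filterByExpr with a count minimum of 10 and a total of 15, robust quasi-likelihood test on group means), and p-values were adjusted by Benjamini-Hochberg over 14314 genes. Calls were made where the adjusted p was below 0.05. A ± after a log2 change is its SE, and after CPM the SD over libraries. Library totals were 10794637 to 17253801 counts, and a member with few counts, such as RPL10L, has the widest error. The test was tested on simulated data. Alternatives were limma-voom (limma 3.58.1), DESeq2 1.42.0, upper-quartile factors, library totals alone, no filter, only the groups compared, a block for the experiment number and leaving out each library. Replicate numbers come from the labels, and the design text names 4 separate experiments. Deviations of same-numbered libraries correlated at 0.0329 to 0.3577 over 32 pairs, and all 4 pairs were over 0.1 for TM PERKi siCtrl with TM siCtrl, TM siPERK-1 with TM siCtrl and TM siPERK-1 with TM siPERK-3, where the numbers were taken to pair the samples.

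Values in every sample were given for paralog pairs, MDM2-binding and stalk members, the targeted genes, and the 3 largest called rises and falls per comparison with a control among members whose mean log2 CPM reached 1; levels were named for the 5 highest and 5 lowest members, and up to 4 called genes from each other list. Members and lists were chosen with earlier results of these data known. Expression coordinates are hg19, and sequences come from RefSeq GRCh38.p14 promoter entries (250 bases before and 50 after the start). A gene of the set that was not tested is not reported here.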

Additional observations from a re-analysis of the deposited data

Results flagged for a closer look

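Of 217 groups of 4 libraries looked at, 11 had a library far from the other 3, by Dixon's test at its 95% critical value, which chance passes in about 1 in 20 groups. RPL13A was highest in replicate 4 of TM siATF4-2 (397 CPM, the others 268 to 273) and of TM siATF4-3 (397 CPM, the others 314 to 326). RPL36A was low in TM siPERK-3 replicate 3 (17.9 CPM, the others 19.4 to 19.5) and high in TM siATF4-3 replicate 1 (22.6 CPM). RPS26 was low in TM siPERK-3 replicate 1 (260 CPM, the others 273 to 276) and in TM siCtrl replicate 4 (224 CPM, the others 256 to 262). In TM PERKi siCtrl replicate 4, RPLP0 (3700 CPM) and RPS2 (4190 CPM) were low. RPS15 was low in TM siATF4-3 replicate 1 (545 CPM, the others 587 to 590). In DMSO siCtrl, RPS27L was low in replicate 4 (107 CPM) and RPS21 in replicate 1 (262 CPM).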

How the results depend on the processing

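Over 180 results for single genes and 2700 alternatives, 2521 kept their side of the threshold, 115 lost a call, 58 gained one and 6 turned sign with a call under at least 1 of the 2 settings. Of the 2521, 106 turned sign without being called under either setting. The 6 were tunicamycin changes with library totals alone, which moved the median of all genes to -0.13: RPL39 (-0.1061), RPL5 (-0.0206), RPL11 (-0.0256), RPLP2 (-0.0038), RPS21 (-0.1191) and RPL35 (-0.1339). Of 31 calls named by rank, 23 held in all 15 alternatives. With library totals alone, 7 members were higher and 23 lower with tunicamycin, 46 lower with the inhibitor, 1 lower with TM siPERK-1, 2 higher and 20 lower with TM siPERK-3, 18 higher with TM siATF4-2, 36 higher with TM siATF4-3, 0 higher and 22 lower in TM siATF4-2 against TM siATF4-3, and 32 higher and 11 lower in siATF4 against siPERK. With upper-quartile factors the higher counts were 10 with TM siATF4-3, 26 in TM siPERK-1 against TM siPERK-3, 0 in TM siATF4-2 against TM siATF4-3 and 7 in siATF4 against siPERK. That higher count for TM siATF4-2 against TM siATF4-3 was also 0 with the groups compared alone, limma-voom and DESeq2, and without a filter 8 were lower there.

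With the replicate block the higher counts were 2 with the inhibitor, 30 in TM siPERK-1 against TM siPERK-3, 8 with TM siPERK-3, 9 with TM siATF4-2 and 2 in TM siATF4-2 against TM siATF4-3; the block moved no other count of members by over 1.5 times. Where numbers were not taken to pair samples, whether equal numbers mean the same experiment was left undecided. Over all comparisons, 21 of 32 pairs correlated over 0.1, and in 26 of 32 pairs the correlation was highest for the own number.

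With 1 library left out, higher and lower counts ranged over 38 to 44 and 1 to 4 with tunicamycin, 0 to 2 and 9 to 22 with the inhibitor, 13 to 25 and 0 with TM siPERK-1, 3 to 5 and 5 to 11 with TM siPERK-3, 2 to 6 and 18 to 24 with TM siATF4-2, 11 to 23 and 13 to 16 with TM siATF4-3, 6 to 15 and 0 in TM siPERK-1 against TM siPERK-3, 0 to 1 and 7 to 17 in TM siATF4-2 against TM siATF4-3, 1 and 27 to 42 for the inhibitor against siPERK, and 10 to 13 and 29 to 37 for siATF4 against siPERK. The cause of these shifts was not tested.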
